A study of Mus musculus with 84 samples.

Results

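MMC9s are IL-9-producing mucosal mast cells of the small intestine, and the cells compared here are single WT MMC9s in which Il4 reads were or were not detected. Of 81 single cells in the series, 68 had at least 10000 gene reads, under 20% mitochondrial (mt-) reads and under 10% immunoglobulin reads. Cells with 10 or more reads of Il4 were called Il4-detected, and there were 54 of them. The other 14 cells, with under 10 reads of Il4, were called Il4-undetected. Il4 itself chose the groups, so its values describe the groups and are not a result. All 81 cells came from WT BALB/c mice that were sensitized with ovalbumin (Ova) and alum and challenged orally with Ova, the food allergy model of the study. They were sorted from the small intestine (SI) as lineage-negative cells with high IL-4GFP, c-Kit and ST2, no IL-17RB2 and low β7-integrin, so both groups had passed a gate on an IL-4 reporter. The labels name no animal for any cell. The cells were therefore treated as 1 sample, and no test, p-value or standard error was made from them. The series also has 3 bulk MMC9 libraries, which were used to look up the genes that differed between the cells. Per the labels, OVA-sensitized WT mice received bone marrow progenitors that were IL-4RaY709F (a gain-of-function IL-4 receptor), IL-4Ra-/- or WT, and were given 7 oral challenges at 3 per week. Each bulk RNA was pooled from 12 to 20 biological replicates, with 1 library per genotype. How the bulk cells were gated was not given in the labels.

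Interleukin 4 is a type 2 cytokine that mast cells release on activation. It signals through the IL-4 receptor and the transcription factor STAT6, and drives IgE production and type 2 inflammation. In mast cells, crosslinking of the IgE receptor raises intracellular calcium, which sends NFAT factors to the nucleus, and the cytokine genes are transcribed alongside a wave of immediate early genes such as the Egr, Fos and Nr4a families.

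The promoter of the gene that defines the groups is shown with those of Nr4a3 and Batf. Nr4a3 was taken because its Spearman's rho with Il4 was the highest among immediate early genes over the 68 kept cells. Within the Il4-detected cells alone that of Fosb was higher. Batf was taken because it is both a partner of AP-1 factors and a gene of the IL-4 receptor list. Sequences are from RefSeq (GRCm38.p6), 5′ to 3′ on the gene's strand, and end before the most upstream gene start in the deposited count table. Capitals mark the NFAT core GGAAA and the cyclic-AMP response element half-site TGACG, on either strand, and in Batf one match of each motif lies side by side. The windows are chr11:53618670-53618915 on the minus strand for Il4, chr4:48045055-48045152 on the plus strand for Nr4a3, and chr12:85686470-85686668 on the plus strand for Batf.
Il4: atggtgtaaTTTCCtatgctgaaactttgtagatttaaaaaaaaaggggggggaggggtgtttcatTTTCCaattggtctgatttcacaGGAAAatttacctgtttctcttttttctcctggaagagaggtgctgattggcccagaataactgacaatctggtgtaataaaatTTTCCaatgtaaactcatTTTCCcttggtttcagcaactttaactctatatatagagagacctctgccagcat
Nr4a3: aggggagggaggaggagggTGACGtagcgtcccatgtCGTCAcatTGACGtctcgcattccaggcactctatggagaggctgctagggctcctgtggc
Batf: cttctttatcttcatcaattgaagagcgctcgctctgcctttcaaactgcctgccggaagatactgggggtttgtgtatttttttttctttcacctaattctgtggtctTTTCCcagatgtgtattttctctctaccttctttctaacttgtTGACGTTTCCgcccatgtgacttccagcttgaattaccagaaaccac
The Il4 window of 246 bases held 5 GGAAA cores and no TGACG. The Nr4a3 window of 98 bases held 3 TGACG half-sites and no GGAAA, and the Batf window of 199 bases held 2 GGAAA cores and 1 TGACG. For comparison, 32851 mouse promoter windows were cut to the same lengths, keeping the bases farthest from their start. The windows shown end before a gene start, so the cut windows can cover a region at another distance from it. GGAAA was present in 54.9% of the cut windows at the length of Il4, 28.6% at that of Nr4a3 and 48.4% at that of Batf. TGACG was present in 17.4%, 5.22% and 12.6% of windows at those lengths in the same order of genes. The matches describe these letters only.

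The reads of Il4 fell into separate ranges in the deposited counts. The 54 Il4-detected cells had from 10 to 1534 reads of Il4, with a median of 216, and the 14 Il4-undetected cells had from 0 to 4, with a median of 0.5. Of the Il4-undetected cells, 7 had no Il4 read at all. The cells just inside the threshold had 10, 13 and 15 reads, and those just outside it had 4, 3 and 3, so few cells lay near the threshold. In reads scaled to a common total of gene reads (CPM), Il4 spanned 10.3 to 1174 with a median of 165 in Il4-detected cells, and 0 to 3.21 with a median of 0.564 in Il4-undetected cells. Il4-detected cells made up 79.4% of the kept cells (exact Clopper-Pearson 95% interval 67.9 to 88.3%), which covers counting error only and can be set by the sort on IL-4GFP. A threshold of 10 CPM gave the same number of Il4-detected cells, 54.

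Depth was close between the groups, and the number of genes found in a cell was not. Median gene reads were about 1347510 per Il4-detected cell (range 623183 to 2210211) and about 1286460 per Il4-undetected cell (range 815010 to 1753903). The median number of genes with at least 1 read was 4682.5 in Il4-detected cells (range 3276 to 6825) and 3827 in Il4-undetected cells (range 3239 to 6721). Cells thinned to 150000 gene reads kept this gap, with medians of 3308 genes in Il4-detected and 2455 in Il4-undetected cells. The ranges overlapped almost entirely. Median mitochondrial reads were 4.30% in Il4-detected and 5.98% in Il4-undetected cells. Because a gap in detected genes touches most genes at once, each difference was also standardized over 3 strata of detected genes. The lowest stratum held 14 Il4-detected and 9 Il4-undetected cells, the middle one 20 and 3, and the highest one 20 and 2. Standardized differences weight these strata by their Il4-detected cells. Most of the weight of every standardized difference therefore rests on the 5 Il4-undetected cells of the upper strata.

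The groups also differed in reads of genes that mark the sex of an animal. Xist, the RNA that coats the inactive X chromosome in females, reached 25 or more reads in 32 of 54 Il4-detected cells (59.3%, 45 to 72.4%) and in 0 of 14 Il4-undetected cells, whose exact interval reaches 23.2%. The summed reads of 4 Y-linked genes (Ddx3y, Kdm5d, Eif2s3y and Uty) reached 25 in 24 of 54 Il4-detected cells (44.4%) and in 10 of 14 Il4-undetected cells (71.4%). Among Il4-detected cells, 23 had Xist alone, 15 had Y-linked reads alone, 9 had both and 7 had neither. Among Il4-undetected cells, 10 had Y-linked reads alone and 4 had neither. Every Il4-undetected cell had 2 to 9 reads of Xist, the 10 with Y-linked reads included, and levels under a threshold were not read as expression. The threshold of 25 reads was chosen after the values were seen. All 32 cells with Xist were Il4-detected (89.1 to 100%), against 22 of the 36 cells under 25 Xist reads (61.1%, 43.5 to 76.9%). The cells thus came from animals of both sexes, and the part of the animal in any difference between the groups cannot be told apart from that of Il4. The main results are therefore also given within the 36 cells under 25 Xist reads, which are 22 Il4-detected and 14 Il4-undetected cells. No doublet caller was run, and the 9 cells with both kinds of reads were kept. They were all Il4-detected and had a median of 5034 detected genes. That median was 4637 in kept cells with Xist alone, 4174 with Y-linked reads alone and 3963 with neither. The part of these 9 cells in the gap in detected genes was not tested.

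**Figure D1:**
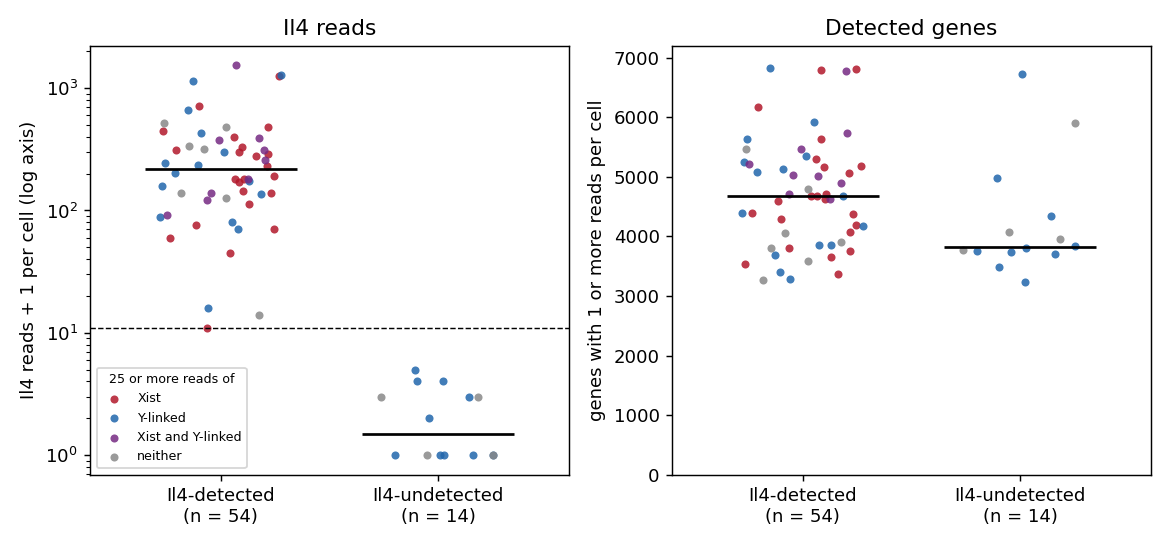
Il4 reads plus 1 per cell on a log axis (left) and genes with at least 1 read per cell (right), for 54 Il4-detected and 14 Il4-undetected cells, with the median of each group as a line and the threshold of 10 reads dashed. Points are coloured by whether Xist, the Y-linked genes, both or neither reached 25 reads, and no Il4-undetected cell is coloured for Xist.

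Across the transcriptome, 7273 genes with 10 or more reads in at least 10% of kept cells were compared. That share was counted over both groups together. A gene at that level in Il4-detected cells alone could therefore enter, as Xist, Cobll1, Il7r, Prss34, Cd74 and H2-Aa did. A gene at that level in Il4-undetected cells alone would have needed a larger share of its 14 cells. A gene passed the size rule when the mean log2(CPM + 1) of Il4-detected cells differed from that of Il4-undetected cells by at least 1.5, before and after standardizing, in the same direction. By this rule 281 genes (3.86%) were higher and 70 (0.962%) were lower in Il4-detected cells. With no filter on genes, 281 were higher and 71 lower, of 19917 genes. Before standardizing, 67.8% of all genes were higher in Il4-detected cells, with a median difference of 0.35, and after it 48.8% were, with a median difference of -0.03. The rule is one of size and does not separate a group difference from the spread between cells. In data simulated from these cells, genes set to be unchanged passed it at a share close to that of the real genes. The simulation took the spread of each gene over both groups together and drew genes independently. It therefore does not show whether the counts exceed what the spread between cells gives. Any single gene past the rule is a description of these cells. The spread between cells was wide: the median SD of log2(CPM + 1) over tested genes was 2.71 in Il4-detected and 2.63 in Il4-undetected cells, larger than the threshold of the rule. Within the cells under 25 Xist reads, 309 genes (4.25%) were higher and 185 (2.54%) lower by the same rule. The 177 higher genes shared by both sets are 63% of the 281 and 57.3% of the 309, and the 60 shared lower genes are 85.7% of the 70 and 32.4% of the 185. The cells under 25 Xist reads are a subset of all cells, so this overlap is no independent repeat. Of the 42 genes past the rule that are named by the rule for named genes, 29 were past it in that subset, and 27 stayed past it with any single cell left out. For a list as long as the longest one tested, 33 genes, the 4.83% of all genes past the rule in either direction comes to 1.59 genes. Counts of 0 to 2 in the longer lists are therefore near the background. In lists of up to 12 tested genes that share comes to 0.58 genes or fewer, and to 0.145 for the 3 dendritic cell markers tested. List counts are given as values only.

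Immediate early genes had the most members past the size rule among the lists. Of 28 tested members, 5 were higher and 0 lower in Il4-detected cells, against the 3.86% of all genes that were higher. The list had a median difference of 1.12 before and 0.51 after standardizing, and 22 of the 28 standardized differences lay above 0. Within the cells under 25 Xist reads, 5 of 28 were higher, against 4.25% of all genes, and the median was 0.68, against -0.10 for all genes. The 5 higher members in all cells were Nr4a3, Nr4a2, Egr2, Fosb and Dusp6. In the subset Egr3 was past the rule and Fosb was not.

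Nr4a3 (ENSMUSG00000028341, chr4:48045153-48086445), an orphan nuclear receptor induced by receptor and calcium signals, was found (10 or more reads) in 41 of 54 Il4-detected cells (75.9%, 62.4 to 86.5%) and in 5 of 14 Il4-undetected cells (35.7%, 12.8 to 64.9%). Its level was 0 CPM in the lowest, 86.6 CPM in the median and 3669 CPM in the highest Il4-detected cell, and 0, 2.22 and 859 CPM in the lowest, median and highest Il4-undetected cell. Most Il4-detected cells lay above the Il4-undetected median, and the ranges overlapped. On the log2(CPM + 1) scale its mean was 5.99 ± 3.08 in Il4-detected and 2.88 ± 2.94 in Il4-undetected cells (SD over cells, n = 54 and 14). That is a difference of 3.12, or 2.47 standardized, and 2.69 standardized within the cells under 25 Xist reads. With any single cell left out, the standardized difference stayed at 1.64 or more. It was found in 15 of 22 Il4-detected cells under 25 Xist reads and in 26 of 32 Il4-detected cells with Xist. Nr4a2, of the same family, was found in 26 of 54 Il4-detected and 2 of 14 Il4-undetected cells, with a standardized difference of 2.20. Nr4a1 was found in 50 of 54 Il4-detected and 6 of 14 Il4-undetected cells. Its median was 448 CPM in Il4-detected and 8.48 CPM in Il4-undetected cells. Its difference was 3.44 before standardizing but 0.90 after it, so Nr4a1 did not pass the rule.

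Egr2 (ENSMUSG00000037868, chr10:67535475-67540246), a zinc-finger factor that is both an immediate early gene and known to be induced by IL-4 in macrophages, was found in 30 of 54 Il4-detected (55.6%, 41.4 to 69.1%) and 2 of 14 Il4-undetected cells (14.3%, 1.78 to 42.8%). Its level was 0 CPM in the lowest, 22.9 CPM in the median and 1132 CPM in the highest Il4-detected cell, and 0, 0.860 and 1546 CPM in the lowest, median and highest Il4-undetected cell. The highest value of all thus belonged to an Il4-undetected cell, while 12 of those 14 cells had under 10 reads. The standardized difference was 2.50, and 2.04 within the cells under 25 Xist reads, and it stayed at 2.03 or more with any single cell left out. Egr1 did not pass the rule: it was found in 54 of 54 Il4-detected and 13 of 14 Il4-undetected cells, with medians of 3102 and 2802 CPM in that order and a standardized difference of 0.39. Egr3 lay between them, with a median of 441 CPM in Il4-detected and 33 CPM in Il4-undetected cells and a standardized difference of 1.39, short of the rule in all cells. It was past the rule within the cells under 25 Xist reads, at 1.51.

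Fosb (ENSMUSG00000003545, chr7:19302696-19310051), a subunit of AP-1, was found in 46 of 54 Il4-detected and 10 of 14 Il4-undetected cells. Its level was 0, 178 and 5807 CPM in the lowest, median and highest Il4-detected cell, and 0.808, 54.2 and 943 CPM in the lowest, median and highest Il4-undetected cell. The groups overlapped widely, and the standardized difference of 1.66 became 1.45 within the cells under 25 Xist reads, below the rule, and was as low as 0.92 when a single cell was left out. Fos had medians of 833 CPM in Il4-detected and 222 CPM in Il4-undetected cells and a standardized difference of 1.19. Jun lay the other way without passing the rule, with medians of 137 CPM in Il4-detected and 184 CPM in Il4-undetected cells and a standardized difference of -0.72. Among the dual-specificity phosphatases, which switch off MAP kinases, Dusp6 was found in 27 of 54 Il4-detected and 2 of 14 Il4-undetected cells with a standardized difference of 1.83. Dusp1 (-0.47) and Dusp2 (-2.16) had negative standardized differences. Dusp2 did not pass the rule, since its difference before standardizing was -1.16.

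**Figure D2:**
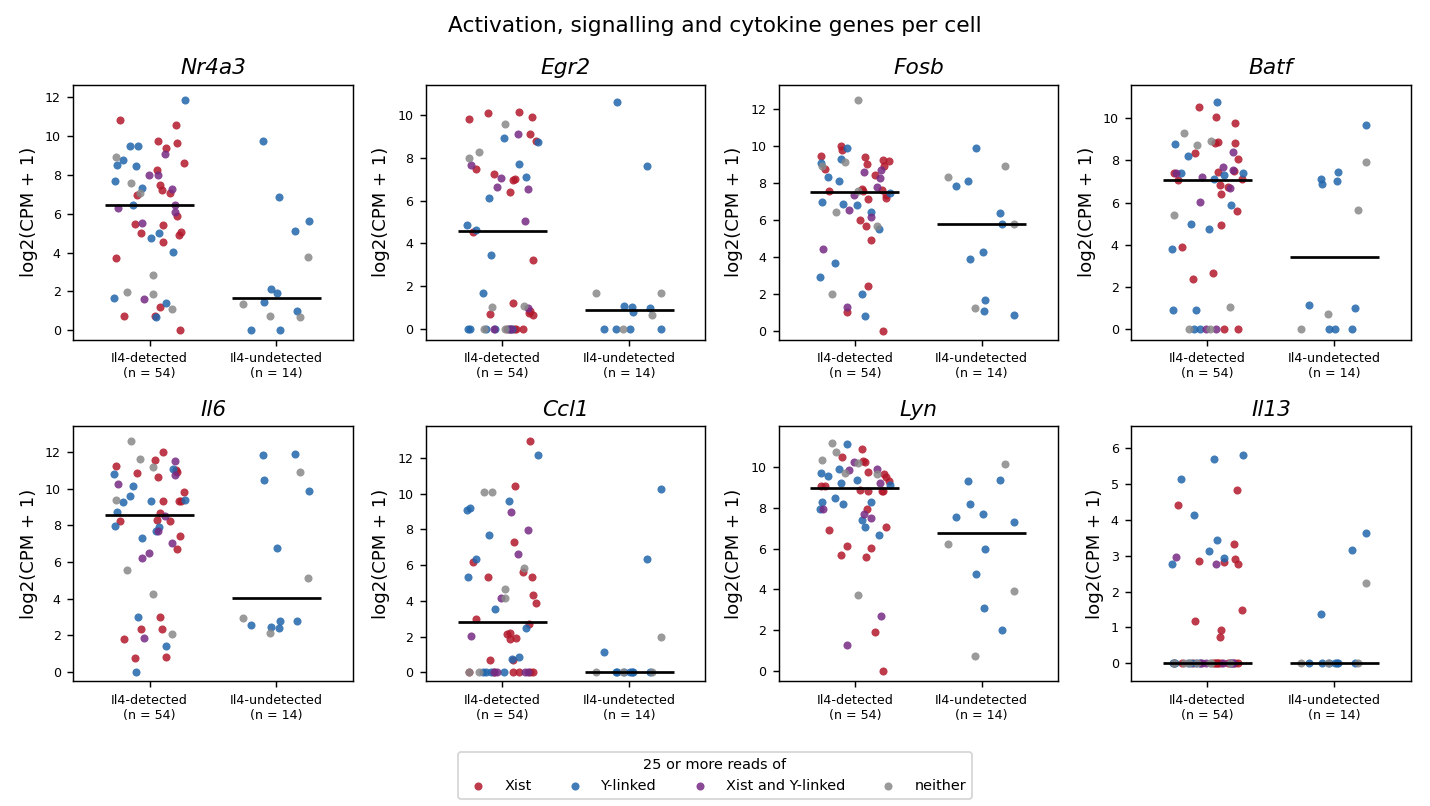
Level of 8 genes in each cell as log2(CPM + 1), with 54 Il4-detected cells on the left and 14 Il4-undetected cells on the right of each panel, medians as lines and colours as the class by Xist and Y-linked reads. Nr4a3, Egr2 and Ccl1 are low in most Il4-undetected cells, with single cells as high as the Il4-detected ones.

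The relation to the amount of Il4 was described by Spearman's rho with Il4 CPM over the 68 cells, which share the reads of one cell and the split that chose the groups. Over 7273 genes the highest values were those of Cobll1 (0.55), Nr4a3 (0.54), Srek1 (0.48), Gpr171 (0.44) and Fosb (0.43). The 54 Il4-detected cells are among the 68 by which these genes were picked, so rho within them is no separate check. Within the 54 Il4-detected cells alone, rho was 0.52 for Cobll1, 0.42 for Nr4a3, 0.40 for Srek1, 0.39 for Gpr171 and 0.46 for Fosb. For Egr2 it was 0.03 and for Batf 0.03 within those cells, although both genes passed the size rule between the groups. Gpr171, an orphan G protein-coupled receptor, was found in all 54 Il4-detected and all 14 Il4-undetected cells, at medians of 2181.9 and 1487.5 CPM in that order. Cobll1 was found in 14 of 54 Il4-detected and 0 of 14 Il4-undetected cells. Its median was 0 CPM in both groups, so its rho rests on the 14 cells.

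Among 32 tested genes listed as regulators of Il4, 4 were higher and 0 lower, against 3.86% and 0.962% of all genes, and the median standardized difference was 0.19. They were Irf2, Batf, Stat5a and Fosb, of which Batf and Fosb were not past the rule within the cells under 25 Xist reads. Batf (ENSMUSG00000034266, chr12:85686669-85709087), which pairs with JUN and IRF factors, was found in 41 of 54 Il4-detected (75.9%) and 7 of 14 Il4-undetected cells (50%, 23 to 77%). Its level was 0, 135 and 1747 CPM in the lowest, median and highest Il4-detected cell, and 0, 25.4 and 808 CPM in the lowest, median and highest Il4-undetected cell. Both groups held cells near 0 and cells above 100 CPM. The standardized difference was 2.22, and 1.28 within the cells under 25 Xist reads, which is below the rule, and leaving out single cells moved it between 0.76 and 3.68. Irf2, an interferon regulatory factor, was found in 29 of 54 Il4-detected and 2 of 14 Il4-undetected cells, with a median of 10.7 CPM in Il4-detected and 0 CPM in Il4-undetected cells and a standardized difference of 2.76.

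Factors tied to the identity of mast cells and to Il4 in T cells had these values. Gata2, which directs mast cell development, was found in every cell of both groups, at a median of 2177 CPM in Il4-detected and 2457 CPM in Il4-undetected cells and a standardized difference of -0.02. Gata1 had a standardized difference of 0.63. Gata3, the master factor of type 2 T cells, was found in 5 of 54 Il4-detected and 0 of 14 Il4-undetected cells, too few to be compared. Nfatc1, the calcium-dependent factor, was found in 39 of 54 Il4-detected and 13 of 14 Il4-undetected cells. Its medians were 133 and 140 CPM in that order, and its standardized difference was -1.02, short of the rule. Nfatc2, also in too few cells, was found in 5 of 54 and 0 of 14. Irf4 was found in 8 of 54 Il4-detected and 1 of 14 Il4-undetected cells, and Maf in 15 of 54 and 6 of 14. Of 23 tested genes of calcium and NFAT signalling, 0 were higher and 1 was lower, near the 4.83% of all genes past the rule, and within the cells under 25 Xist reads 2 were higher and 1 was lower. The lower gene in all cells was Atp2a2, the calcium pump of the endoplasmic reticulum, found in 10 of 54 Il4-detected and 6 of 14 Il4-undetected cells with a standardized difference of -2.55.

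Of 19 tested genes of the IL-4 receptor and its signalling chain, Batf alone was higher and 0 were lower in all cells, near the 4.83% of all genes, with a median standardized difference of 0.18. Within the cells under 25 Xist reads, Cish, a feedback inhibitor of cytokine signals, was higher, and the kinase Tyk2 and the phosphatase Ptpn11 were lower. Il4ra, the alpha chain of the receptor, was found in 23 of 54 Il4-detected (42.6%, 29.2 to 56.8%) and 6 of 14 Il4-undetected cells (42.9%, 17.7 to 71.1%). Its level was 0, 1.96 and 1859 CPM in the lowest, median and highest Il4-detected cell, and 0, 1.18 and 359 CPM in the lowest, median and highest Il4-undetected cell, so the groups overlapped throughout. Its difference was 0.36, and 0.04 standardized. Stat6 was found in 34 of 54 and 9 of 14 cells with medians of 114 and 70.8 CPM in that order. Among 8 tested genes known to be induced by IL-4 and STAT6, 1 was higher, Egr2, and 0 were lower. For 8 genes the 4.83% of all genes comes to 0.386. In the subset under 25 Xist reads Egr2 and Cish were higher.

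Of 7 tested cytokine genes, 0 were higher and 0 lower, a count too small to set against the 4.83% of all genes. Within the cells under 25 Xist reads 1 was higher, Csf1, the macrophage growth factor, with a standardized difference of 1.82. In all cells Csf1 was found in 18 of 54 Il4-detected and 1 of 14 Il4-undetected cells, with a standardized difference of 1.40. Il6, the pro-inflammatory interleukin 6, was found in 44 of 54 Il4-detected (81.5%, 68.6 to 90.7%) and 7 of 14 Il4-undetected cells (50%, 23 to 77%). Its median was 386 CPM in Il4-detected and 20.4 CPM in Il4-undetected cells, and both groups held cells with almost no Il6 and cells with a high level, up to 6195 CPM in Il4-detected and 3787 CPM in Il4-undetected cells. Its difference of 1.62 passed 1.5 before standardizing but was 0.93 after it, and 0.36 standardized with cells thinned to a common depth. At 2 or more reads in the thinned cells, Il6 was found in 83.3% of Il4-detected and 78.6% of Il4-undetected cells. The gap in the share of cells with Il6 thus depended on the depth and the threshold in reads. Il13, which lies next to Il4 in the type 2 cytokine locus, was found in 10 of 54 Il4-detected (18.5%, 9.25 to 31.4%) and 2 of 14 Il4-undetected cells (14.3%). Its highest level was 54.5 CPM in an Il4-detected and 11.3 CPM in an Il4-undetected cell. Il5 had no read in any kept cell. Il9, which gives MMC9s their name, was found in 0 of 54 Il4-detected cells and 1 of 14 Il4-undetected cells, where it reached 744 CPM. Csf2 was found in 1 of 54 and 0 of 14 cells, Tnf in 17 and 4, and Il10 in 7 and 2, Il4-detected cells first. For Lif, standardizing turned the sign: 30 of 54 Il4-detected and 4 of 14 Il4-undetected cells had it, with a difference of 1.72 before and -0.94 after. Of 5 tested chemokines, for which the 4.83% of all genes comes to 0.242, Ccl1, which recruits type 2 cells through CCR8, was higher. It was found in 27 of 54 Il4-detected (50%) and 2 of 14 Il4-undetected cells (14.3%), with a standardized difference of 2.38 and of 3.27 within the cells under 25 Xist reads.

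Mast cell markers were present at high levels in both groups. Of 19 tested markers, 0 were higher and 0 lower, with a median standardized difference of 0.00, against 4.83% of all genes past the rule in either direction. In the subset under 25 Xist reads 1 was higher, the tryptase gene Tpsab1. Cpa3, the mast cell carboxypeptidase, was found in every cell at a median of 17799 CPM in Il4-detected and 17710 CPM in Il4-undetected cells, with SDs of 0.61 and 0.79 on the log2 scale. Fcer1a, the IgE-binding chain of the high-affinity receptor, had a median of 5938 CPM in Il4-detected and 7798 CPM in Il4-undetected cells. Kit and Il1rl1, which encode the sorted proteins c-Kit and ST2, had standardized differences of -0.26 and 0.06. General mast cell markers were thus present in both groups, while Il9, the gene that names MMC9s, was found in 0 of 54 Il4-detected and 1 of 14 Il4-undetected cells. The mucosal mast cell proteases varied widely within each group: Mcpt1 spanned 14.3 to 49122 CPM with a median of 6592 in Il4-detected cells, and 16 to 18093 CPM with a median of 4283 in Il4-undetected cells. Its standardized difference was -0.80, and that of Mcpt2 was 0.46. Reads of these near-identical genes may be split between them. Of 12 tested granule proteases 1 was higher in all cells, Prss34 (also on the basophil list), in 11 of 54 Il4-detected and 0 of 14 Il4-undetected cells. The 4.83% of all genes comes to 0.58 genes of 12. In the subset under 25 Xist reads 2 granule proteases were higher, Prss34 and Tpsab1.

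**Figure D3:**
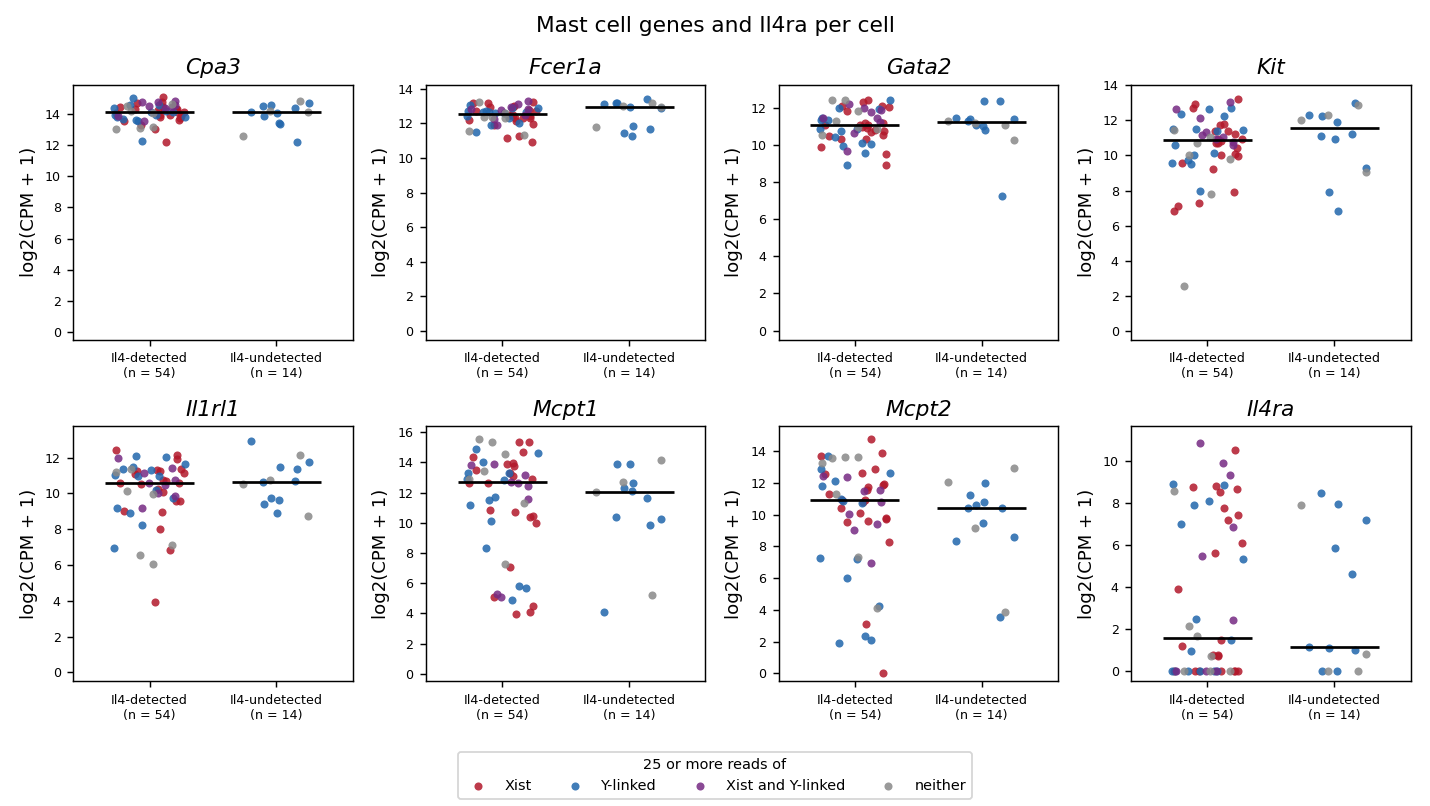
Level of 7 mast cell genes and of Il4ra in each cell as log2(CPM + 1), with 54 Il4-detected cells on the left and 14 Il4-undetected cells on the right of each panel, medians as lines and colours as the class by Xist and Y-linked reads. Cpa3, Fcer1a and Gata2 lie in one band in both groups, while Mcpt1, Mcpt2 and Il4ra spread over most of their range in each.

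Beyond these lists, signalling from the IgE receptor had 2 of 30 tested genes higher and 0 lower, near the 3.86% and 0.962% of all genes, with a median standardized difference of 0.07. Lyn, the kinase that phosphorylates the receptor first, had a median of 501 CPM in Il4-detected and 114 CPM in Il4-undetected cells and a standardized difference of 2.07, or 2.81 within the cells under 25 Xist reads, and as low as 1.01 when a single cell was left out. Lat, the adaptor that links the receptor to calcium release, had medians of 205 CPM in Il4-detected and 37.4 CPM in Il4-undetected cells, with a standardized difference of 1.78. It was not past the rule within the cells under 25 Xist reads, where the difference before standardizing was 1.46, and was as low as 1.21 when a single cell was left out. Of 29 tested surface receptors 3 were higher: Itga4, an integrin chain, Cd200r1, an inhibitory receptor, and P2rx7, an ATP-gated channel. The 4.83% of all genes comes to 1.40 genes of 29. Cd200r1 was found in 19 of 54 Il4-detected and 1 of 14 Il4-undetected cells. In heparin and granule storage, Chst15 and Ndst2, which sulfate glycosaminoglycans, were higher and Hs6st1 was lower, of 18 tested. The 4.83% of all genes comes to 0.869 genes of 18. None of Chst15, Ndst2 and Hs6st1 was past the rule within the cells under 25 Xist reads. Ndst2 went as low as 0.71, against 1.67 in all cells, when a single cell was left out. Ptgs2, which makes prostaglandin precursors, was found in 22 of 54 Il4-detected and 1 of 14 Il4-undetected cells, and was 1 of 11 eicosanoid genes past the rule. For 11 genes the 4.83% of all genes comes to 0.531. The standardized difference of Ptgs2, 1.78, was 1.45 within the cells under 25 Xist reads, and as low as 0.84 when a single cell was left out. Ikbkb, a kinase that activates NF-kB, was 1 of 19 NF-kB genes past the rule, where the 4.83% of all genes comes to 0.918. Its median was 29.8 CPM in Il4-detected and 0 CPM in Il4-undetected cells. Just 1 gene each was past the rule among 24 genes of the unfolded protein response (Dnajc3, higher), 31 of secretory export (Sar1b, higher) and 16 of glycolysis (Slc2a3, higher), near the 4.83% of all genes. Of 6 tested genes of the interferon response 1 was lower, Stat2, where that share comes to 0.29 genes. Dnajc3 and Sar1b were not past the rule within the cells under 25 Xist reads. With a single cell left out, the standardized difference came as close to 0 as 0.69 for Dnajc3, against 1.62 in all cells, and -0.27 for Stat2, against -1.95. Of 26 proliferation genes 0 passed. The median difference of the list was 0.34 before and -0.84 after standardizing, and -0.26 by regression on detected genes. Of the 26 standardized differences 3 lay above 0, against 48.8% of all genes. Mki67 was found in 12 of 54 Il4-detected (22.2%) and 3 of 14 Il4-undetected cells (21.4%). Its difference was 0.22 before and -2.01 after standardizing, and 0.16 in the lowest stratum alone. Of 33 genes of oxidative phosphorylation, for which the 4.83% of all genes comes to 1.59, 0 were higher and 1 was lower. That gene, Atp5g1, had a median of 23.5 CPM in Il4-detected and 67.5 CPM in Il4-undetected cells.

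**Figure D4:**
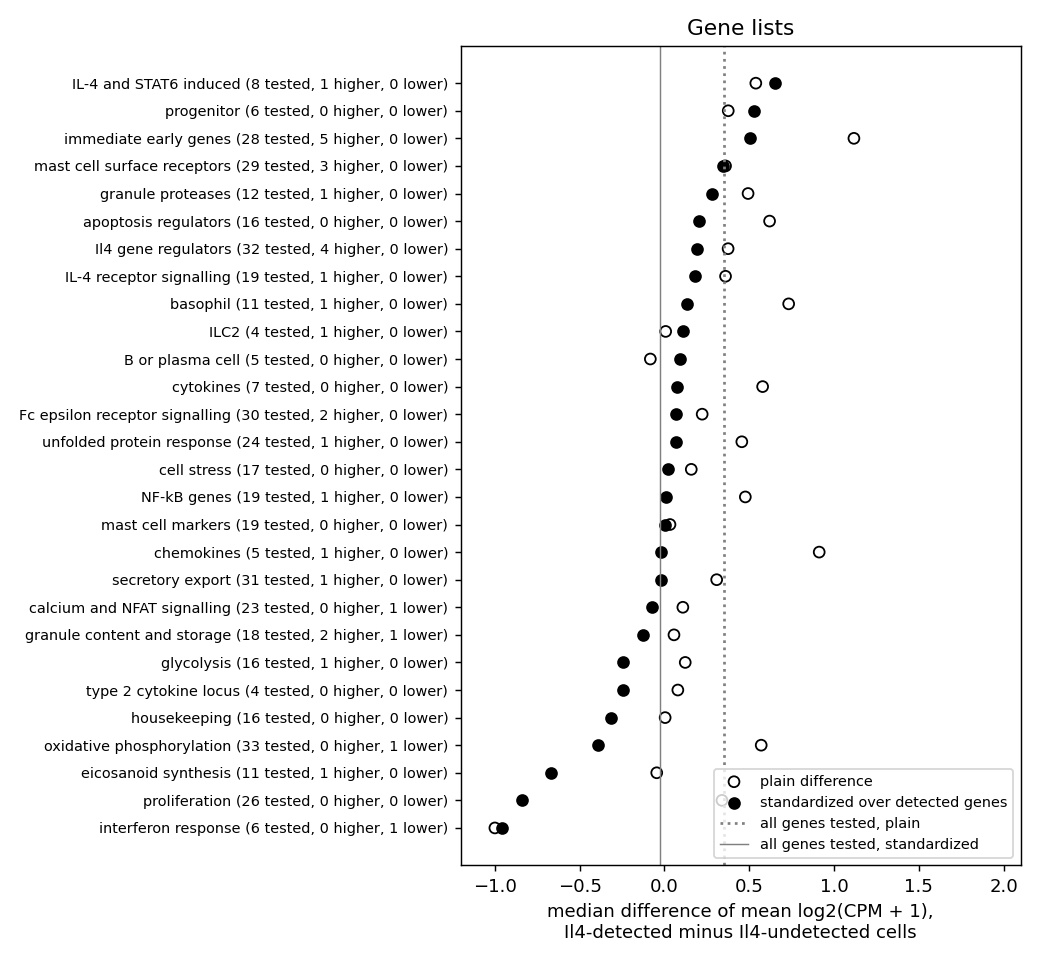
Median difference of mean log2(CPM + 1), Il4-detected minus Il4-undetected cells, over the tested members of each list with at least 4, before (open) and after (filled) standardizing over detected genes, with the medians of all 7273 genes as lines. Immediate early genes have the highest median before standardizing, 1.12, and several lists change sign after it. After standardizing their median is 0.51, below 0.65 for genes induced by IL-4 and STAT6 and 0.53 for progenitor markers.

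Markers of other cell types were looked at for the same groups. No neutrophil, eosinophil or erythroid marker was frequent enough to be tested. Of 3 tested dendritic cell markers, H2-Aa and Cd74, which present antigen, were higher: H2-Aa was found in 12 of 54 and Cd74 in 13 of 54 Il4-detected cells, and each in 0 of 14 Il4-undetected cells. Both genes entered the comparison through Il4-detected cells alone, so their count is a value only. Cd74 and H2-Ab1 were past the rule within the cells under 25 Xist reads, and H2-Aa was not. H2-Eb1, in too few cells to be tested, was found in 2 of 54 Il4-detected and 1 of 14 Il4-undetected cells. Flt3, Clec9a, Cd209a, Ccr7 and Ciita were at 0 in both groups. The summed level of all 12 dendritic cell markers ranged from 0 to 4786 CPM with a median of 18.7 in Il4-detected cells, and from 0 to 57.6 CPM with a median of 0.898 in Il4-undetected cells. Its part in the other differences was not tested. Of 11 tested basophil markers 1, Prss34, was higher in all cells, and within the cells under 25 Xist reads 4 were, Prss34, Cd200r3, Csf1 and Ccl3. The shares of all genes that were higher were 3.86% in all cells and 4.25% in that subset. Of 4 tested ILC2 markers, for which the 4.83% of all genes comes to 0.193, 1 was higher. It was Il7r, in 17 of 54 Il4-detected and 0 of 14 Il4-undetected cells. Of the markers of macrophages (2 tested), T cells (2), B or plasma cells (5), cytotoxic lymphocytes (3), epithelium (1), stroma (2) and progenitors (6), 0 passed, which is too few genes to set against the 4.83% of all genes. Not all were scarce. Medians in Il4-detected and Il4-undetected cells were 833 and 917 CPM for Cx3cr1 (macrophage) and 3098 and 2806 CPM for Gzmb (cytotoxic). Apoe and Nkg7, from the same lists in that order, had medians of 0 CPM in both groups. The T cell gene Cd3e was found in 27 of 54 Il4-detected and 3 of 14 Il4-undetected cells, with a difference of 1.47 before and 1.12 after standardizing. Lck, the other T cell marker tested, was found in 11 of 54 and 3 of 14 cells in that order, with a standardized difference of -0.11. Trbc1, Trbc2, Cd4, Cd8a, Cd8b1 and Cd5 were at 0 in both groups.

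The largest standardized differences past the rule were those of genes outside these lists. Xist headed the higher genes with a standardized difference of 3.62, which was 0.20 within the cells under 25 Xist reads, where the cells were chosen by it. The next 7 were Samhd1 (3.49), which degrades nucleotides for DNA synthesis, Gstm1 (3.47), a glutathione transferase, Kdm5a (3.38), a histone demethylase, Pdcd6ip (3.15), Sptssa (3.13), Swap70 (3.08) and Fnbp1 (3.02). Their standardized differences within the cells under 25 Xist reads ran between 2.09 for Sptssa and 3.36 for Samhd1. Fnbp1, for one, was found in 43 of 54 Il4-detected and 6 of 14 Il4-undetected cells, with a median of 232 CPM in Il4-detected and 1.88 CPM in Il4-undetected cells. The 8 lowest were Mrps7 (-4.18), a mitochondrial ribosomal protein, Tmed3 (-4.16), of vesicle transport, Snx6 (-3.95), a sorting nexin, Tmem183a (-3.63), Zzef1 (-3.59), Usp42 (-3.32), a deubiquitinase, Tpp1 (-3.12), a lysosomal peptidase, and Xrn2 (-3.09), a nuclear exonuclease. Mrps7 was found in 7 of 54 Il4-detected and 6 of 14 Il4-undetected cells, and its difference before standardizing was -2.13. Each of these 8 genes had a larger difference after standardizing than before it. In the lowest stratum alone, their differences were -0.92 for Mrps7, -2.28 for Tmed3, -2.36 for Snx6 and -0.78 for Tmem183a. They were -1.67 for Zzef1, -1.48 for Usp42, -0.30 for Tpp1 and -1.86 for Xrn2. Usp42 and Tpp1 were not past the rule within the cells under 25 Xist reads. Within the lowest stratum alone, 115 of the 281 higher and 54 of the 70 lower genes differed by at least 1.5 in the same direction. Of all 7273 genes, 668 were higher and 612 lower by that size there. That stratum holds 9 of the 14 Il4-undetected cells behind the calls, so this is no independent repeat.

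**Figure D5:**
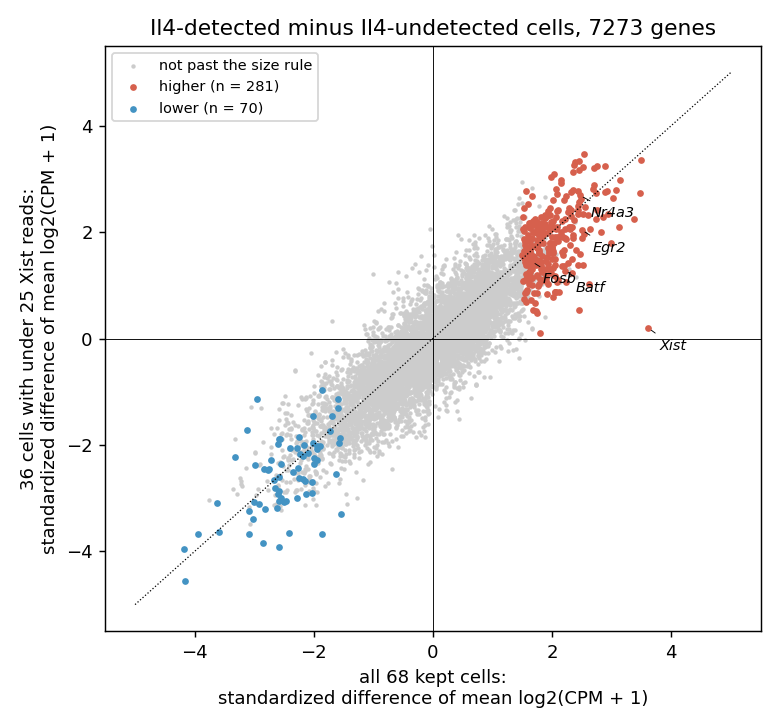
Standardized difference of mean log2(CPM + 1), Il4-detected minus Il4-undetected, in all 68 kept cells (x axis) and in the 36 cells under 25 Xist reads (y axis) for 7273 genes, with genes past the size rule in colour. Xist falls to 0.20 on the y axis, while Nr4a3 stays at 2.69 and Egr2 at 2.04.

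In the bulk libraries, with 1 library per genotype and no replicate check, Il4 had 541 reads (233 CPM) in IL-4RaY709F, 447 reads (176 CPM) in IL-4Ra-/- and 333 reads (146 CPM) in WT MMC9s. The genes higher in Il4-detected cells did not stand apart there. Of the 281, 278 had 20 or more reads over the 3 libraries, and their median log2 ratio was -0.01 for IL-4RaY709F over WT and -0.07 for IL-4Ra-/- over WT. The medians of 6793 tested genes with as many reads were 0.03 and -0.07 for the same ratios. The 68 measured lower genes had medians of 0.05 for IL-4RaY709F over WT and -0.02 for IL-4Ra-/- over WT. Nr4a3 stood at 1142 CPM in IL-4RaY709F, 1682 CPM in IL-4Ra-/- and 1047 CPM in WT libraries. Batf stood at 456 CPM in IL-4RaY709F, 51.5 CPM in IL-4Ra-/- and 151 CPM in WT libraries.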

How the data were processed

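RNA-seq of single WT MMC9s (1 sample, since the labels name no animal) and of 3 bulk libraries was used. Per the submitters' processing notes, HISAT, featureCounts and Subread 2.0.0 were used, with the builds GRCm38 and mm9 named without roles. The deposited tables hold raw counts of reads for each gene, as whole numbers that the authors did not normalize. The design text speaks of RPKM for the cells, and no such values were used here. Of 55471 gene IDs, 55144 were in GENCODE M21 (GRCm38) and 99.4% had the same coordinates there. Strand setting and the handling of multi-mapping reads are stated in no label or header used here, so overlapping, antisense and near-identical genes are uncertain.

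No pair of kept cells had identical counts. Of the 13 cells left out, 1 had under 10000 gene reads, 11 had 20% or more mt- reads and 2 had 10% or more immunoglobulin reads, 1 of them both. CPM was taken over gene reads, with a pseudocount of 1 on the log2 scale. Standardized differences are within-stratum differences weighted by the number of Il4-detected cells. A gene was found in a cell at 10 or more reads. Intervals are exact (Clopper-Pearson, 95%), and reads are not independent molecules, so they cover counting error only. Bulk CPM used TMM factors (edgeR 4.0.16), and scran 1.30.0 gave alternative size factors. The calculations were tested on simulated data, where the size rule also passed unchanged genes, at a share close to that in the real data. No test was run on cells, and no p-value was computed.

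Named are a fixed set of cytokine, receptor, regulator and mast cell genes, the 8 highest and 8 lowest standardized differences past the size rule, up to 2 highest and 2 lowest members of each list (past the rule, or the extremes where none was), and the 5 highest rho with Il4. Other immediate early genes, Stat5a, P2rx7, Cish, Tyk2, Ptpn11, H2-Ab1, Cd200r3, Ccl3 and the Xist and Y-linked split were chosen after their values were seen. The groups and lists were chosen with earlier results of these data known.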

Additional observations from a re-analysis of the deposited data

Results flagged for a closer look

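Il4 was also read in cells outside the comparison. Of the 13 cells left out, 3 had 10 or more reads of Il4, at 35, 55 and 492 reads, and mt- reads of 27.2%, 24.6% and 32.3% in the same order.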

How the results depend on the processing

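Counts of genes past the size rule are given as higher, then lower, against 281 and 70. They were 500 and 310 with an Il4 threshold of 1 read, 29 and 5 with log2(CPM + 10), 696 and 213 with log2(CPM + 0.1), 771 and 267 at a size of 1, and 86 and 17 at a size of 2. Lower genes numbered 31 with an Il4 threshold of 50 reads and 5 in 80 cells without limits on mt- or immunoglobulin reads, and higher genes numbered 615 without standardization. After the data were seen, 3 more settings were added: lower genes numbered 185 in cells under 25 Xist reads, the lowest stratum alone gave 668 and 612 with fewer cells, and leaving out the 9 cells with both Xist and Y-linked reads gave 247 and 93. Leaving out each cell in turn gave 257 to 416 higher and 51 to 88 lower genes. For the settings that move a count, the cause was not tested beyond their construction. Thinning, scran or TMM factors, regression on detected genes and 2 strata kept both counts within 1.5 times. Sar1b reversed to -0.63 in the lowest stratum and Slc2a3 to -0.37 with an Il4 threshold of 1 read. Leaving single cells out aside, Nr4a3, Egr2 and Lyn had standardized differences of at least 1.5 under all 17 alternatives tried for them and Batf under 12. With single cells left out, Lyn came down to 1.01 and Batf to 0.76. Scaling bulk libraries by total reads gave higher genes medians of -0.11 (IL-4RaY709F over WT) and 0.06 (IL-4Ra-/- over WT), and lower genes -0.06 and 0.11. That scaling moves the ratios of all genes by the same amount, so the place of these genes among all genes is unchanged. No paired analysis was possible because the cells form 1 sample, each genotype has 1 bulk library, and the results come from no test. The 14 Il4-undetected cells limit every comparison, and the animals behind the cells are unknown.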
